A study of Mus musculus with 14 samples.

Results

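Oxidative phosphorylation subunit genes encode the nuclear parts of the respiratory chain and of ATP synthase. They were found by symbol in the mouse mm9 annotation (GENCODE, NCBIM37): protein-coding genes starting with Nduf, Uqcr or Atp5, Sdha to Sdhd, Cyc1, and Cox followed by 4 to 8. The rule took 92 of 22238 protein-coding genes. Of these, 82 encode subunits, and the other 10 are assembly factors, paralogs and related genes that carry such symbols (4 Ndufaf genes, Ndufa4l2, Cox7a2l, Atp5s, Atp5sl, Atp5l-ps1 and Cox4nb). Cox4nb and Atp5l-ps1 matched the rule by symbol only.

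The cells were 4T1, a cultured mouse mammary tumour line. Open chromatin was profiled by ATAC-seq, in which a transposase inserts sequencing adapters into accessible DNA, on fixed bulk cells. One group was kept in normoxia, described as 5% oxygen for control cells of the same experiment though the labels give no level, and 6 groups were kept in 1% oxygen for 1 of 6 lengths of time (6 h, 12 h, 24 h, 36 h, 48 h or 72 h). Each group had 2 samples, 14 in all, and no genotype or other treatment differed between groups. The authors merged the samples of a group before calling peaks, so each group was 1 list of peaks with no replicate error. No difference between lists below was therefore tested, and no value carries a replicate spread. All groups were the same cell line, so nothing here extends beyond it.

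Complexes I to IV pass electrons from NADH and succinate to oxygen and pump protons across the inner mitochondrial membrane, except complex II, which pumps none. Complex V uses the proton gradient to make ATP. Most subunits are nuclear genes that nearly every cell uses, and several complex IV subunits have paralogs used in particular tissues such as heart, skeletal muscle or testis. Cox4i2 and Ndufa4l2 are known as genes that low oxygen can induce in some cell types.

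A promoter peak was a deposited peak within 1 kb of any annotated start of the gene, and the highest was kept where several lay there. Its height is given as fold enrichment, the reads piled up at the summit over the local background in the same list, a linear ratio. Such a peak was found in all 7 lists at 80 of the 92 genes (87.0%), against 46.7% of all protein-coding genes. Only 4 genes had a promoter peak in some lists and not in others, and 8 had none in any list. Across all protein-coding genes, 42.2% had none in any list. Each list held a promoter peak at 81 or 82 of the 92 genes. With only the 20000 peaks of highest -log10 q in each list, 46 of the 92 had one in all 7 lists, against 25.2% of all genes.

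**Figure D1:**
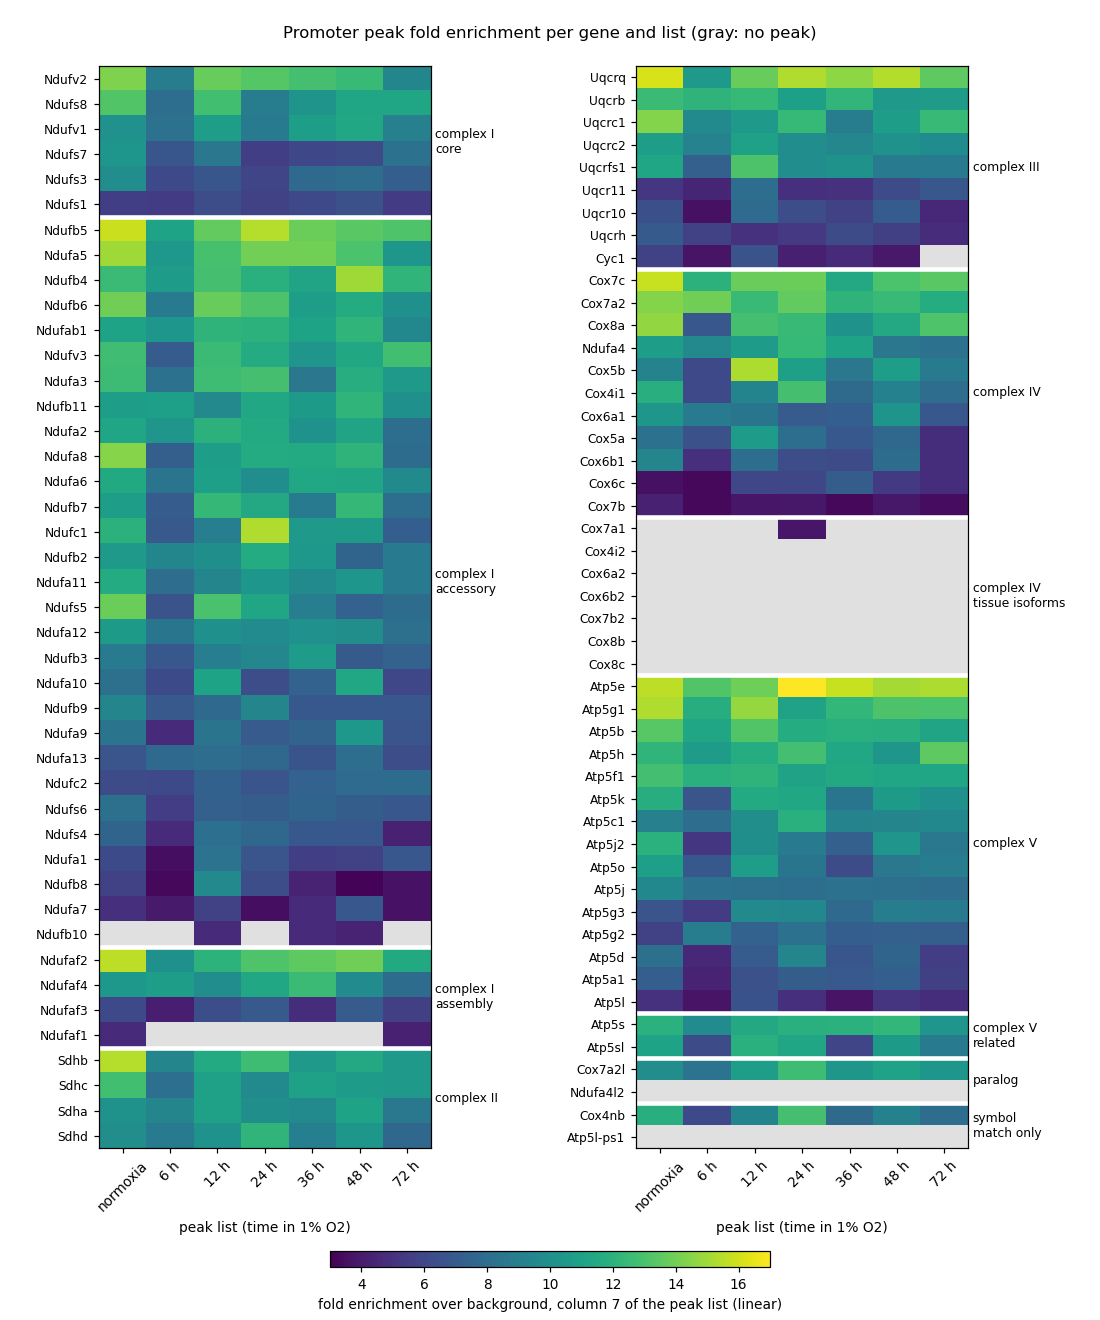
Fold enrichment of the promoter peak (color, linear scale) of 91 of the 92 genes (rows, grouped by complex and ordered by mean position) in normoxia and at 6 times in 1% oxygen (columns). Gray cells have no promoter peak; 79 rows are filled throughout, and most gray cells belong to the 7 tissue isoforms of complex IV.

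The promoter peaks of these genes were higher than those of the median gene in each list. The median fold enrichment of the genes with a peak was 10.7 in normoxia. In hypoxia it was 7.29, 10.4, 9.92, 8.96, 10.3 and 8.28, in order of time from 6 h to 72 h, and hypoxia values are given in this order throughout. The same medians over all genes with a promoter peak were 9.14, 7.02, 9.17, 9.09, 8.26, 8.53 and 7.54. The 6 h list was the lowest for both sets, and the medians of the oxidative phosphorylation genes were the higher in every list. Median summit reads were close to those of all genes: 34 against 33 in normoxia, 58.5 against 59 at 12 h and 41 against 41 at 72 h. The median local background was lower than that of all genes in every list, with 2.18 against 2.64 reads in normoxia and 3.90 against 4.34 at 72 h. Within the normoxia list the middle of the genes ran from 8.17 (25th percentile) to 12.6 (75th percentile), with extremes of 3.63 and 16.1. Depth differed between lists: the lowest background, taken as the genome level, was 0.926 reads in normoxia and from 1.85 to 3.25 reads in the hypoxia lists. The fewest reads at which any promoter peak was called were 5 in normoxia and from 7 to 11 in hypoxia, and these differences in depth move with every comparison of a hypoxia list with normoxia. Their part in the results was not tested.

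Because fold enrichment is not scaled between lists, a gene was also placed by the percentile of its peak among all promoter peaks of the list. Averaged over lists, the median oxidative phosphorylation gene stood at percentile 64.0. The 84 cytosolic ribosomal protein genes, another set that nearly every cell uses, had a median percentile of 43.6, with 71 of them in all 7 lists (84.5%). Peak width gave no such contrast. The median width was 701 bp against 696 bp for all genes in normoxia, 859.5 against 841 bp at 12 h and 683 against 692 bp at 72 h.

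In normoxia the summit lay within 100 bp of an annotated start of the gene for 62 of 82 genes (75.6%), against 57.3% of all genes with a promoter peak. The median summit was 42.5 bp before the start. For 31 of the 82 (37.8%), the same peak also lay within 1 kb of the start of another protein-coding gene, against 21.5% of all genes. Examples were Atp5j with Gabpa, which encodes the DNA-binding subunit of an ETS factor, Sdhd with Timm8b, Ndufs1 with Eef1b2, and Ndufa7 with Rps28. At such places the peak cannot be assigned to either gene. Cox4i1 and Cox4nb shared 1 peak and thus 1 set of values.

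The nuclear core subunits of complex I, which hold the flavin and the iron-sulfur clusters, had the lowest median position of the complexes. All 7 had a peak in every list, and their median position was percentile 39.5, from 23.1 to 86.1. Ndufs1, the largest core subunit, had a fold enrichment of 5.57 in normoxia and 5.43, 6.33, 5.72, 6.07, 6.47 and 5.50 in hypoxia. Ndufv1, which binds the flavin, had 10.1 in normoxia and 8.23, 10.9, 8.78, 10.9, 11.4 and 9.09 in hypoxia. Ndufs1 stayed between 5.43 and 6.47, and Ndufv1 was above it in all 7 lists.

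The accessory subunits of complex I numbered 29, of which 28 had a peak in every list, with a median percentile of 65.1. Ndufb5 was the highest of them, with fold enrichments of 15.9 in normoxia and 11.1, 13.6, 15.4, 13.9, 13.4 and 13.2 in hypoxia. Ndufa7 and Ndufb8 were among the lowest of the 80 genes. Ndufb8 had 5.71 in normoxia and 3.29, 9.58, 6.32, 4.35, 3.13 and 3.69 in hypoxia, on 10 to 31 reads at the summit. The peaks that counted for Ndufa7 lay at 2 different annotated starts, and at the upstream start there was none at 6 h. Of the assembly factors, Ndufaf2, Ndufaf3 and Ndufaf4 had a peak in all lists.

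All 4 subunits of complex II, the succinate dehydrogenase, had a peak in every list and stood between percentile 65.1 and 82.1. Sdhb, the iron-sulfur subunit, had 15.4 in normoxia and 9.39, 11.6, 12.7, 10.6, 11.4 and 10.6 in hypoxia. Normoxia was the highest of its 7 values, as it was for Uqcrq, Ndufb5, Cox7c and Cox7a2. Counted in summit reads over the all-promoter median, Sdhb was from 0.72 to 0.88 times normoxia. The 95% interval for counting error alone held 1 at all 6 times. Sdha, the flavoprotein, had 10.1 in normoxia and from 8.61 to 11.1 in hypoxia.

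Complex III passes electrons from ubiquinol to cytochrome c. Of its 9 genes 8 had a peak in every list, and the positions split widely, from percentile 12.2 for Cyc1 to 96.1 for Uqcrq. Uqcrq, a small subunit, had fold enrichments of 16.1 in normoxia and 10.5, 13.8, 15.3, 14.6, 15.4 and 13.5 in hypoxia, close to the top of all promoters. Uqcrfs1, the Rieske iron-sulfur protein, had 11.3 in normoxia and from 7.29 to 13.1 in hypoxia.

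Complex IV, cytochrome c oxidase, had 11 genes of its ubiquitous form, Ndufa4 included. All 11 had a peak in every list, with a median percentile of 58.7. Cox7c was among the 4 highest of all 80 genes, with 15.8 in normoxia and 12.0, 13.8, 13.8, 11.5, 13.1 and 13.4 in hypoxia. Cox7b, on the X chromosome, was the lowest, with 4.28 in normoxia and 3.32, 3.85, 3.92, 3.29, 3.89 and 3.46 in hypoxia. Its summit lay within 83 bp of the start in every list. Cox5a, which stood at percentile 40.3, had 8.26 in normoxia and from 4.83 to 10.8 in hypoxia.

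Complex V had 15 genes, all with a peak in every list, at a median percentile of 54.1. Atp5e, the epsilon subunit of the F1 part, was the highest of all 80 genes, at percentile 98.2. Its fold enrichment was 15.6 in normoxia and 13.2, 13.9, 17.0, 15.8, 15.1 and 15.3 at 6 to 72 h, on 114 to 168 reads at the summit. Atp5b, the catalytic beta subunit, had 13.4 in normoxia and from 11.2 to 13.2 in hypoxia. Atp5a1, the alpha subunit of the same catalytic ring, stood lower, with 7.19 in normoxia and from 4.38 to 7.20 in hypoxia. Atp5l, a subunit of the membrane part, was among the 4 lowest, with 5.00 in normoxia and from 3.73 to 6.55 in hypoxia.

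**Figure D2:**
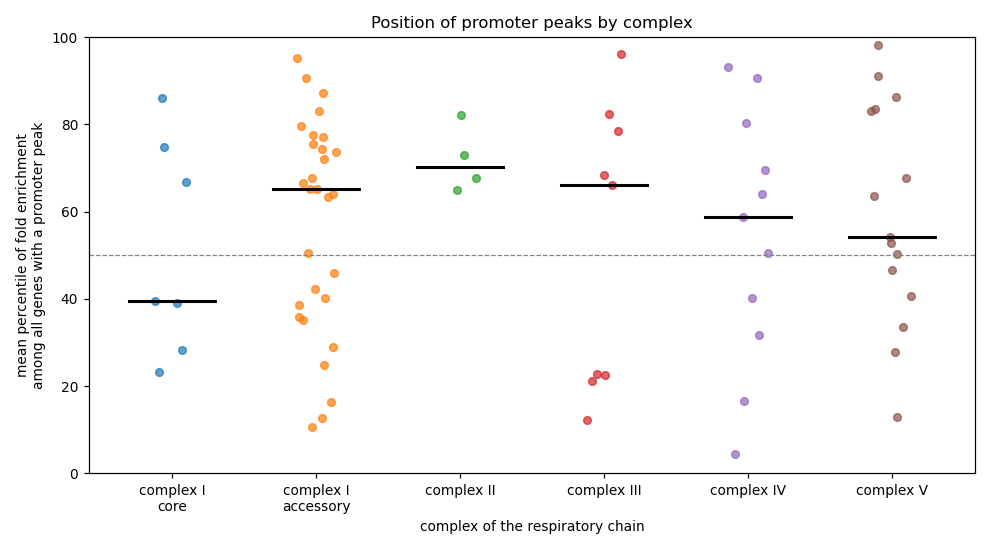
Mean percentile of promoter peak height (vertical axis, percent, among all genes with a promoter peak, averaged over the lists where the gene has one) for each gene (points) of each complex. Bars are medians, from 39.5 for the complex I core to 70.3 for complex II, and the dashed line is the middle of all promoter peaks; the tissue isoforms, assembly factors and paralogs are not drawn.

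The promoter of Atp5e is shown as the highest of the set, from 200 bp before to 30 bp from the start that lies nearest to the normoxia summit. Sequences in these windows are from the reference genome NCBIM37, 5′ to 3′ on the strand of the gene. Capitals mark exact matches, on either strand, to the letters searched: NRF1 (GCGCATGCG), ETS (CCGGAAG), YY1 (AAGATGGCG), NFY (CCAAT), SP (GGGCGG), HIF (ACGTG or GCGTG), CRE (TGACGTCA), ERR (TCAAGGTCA) and AP-1 (TGANTCA). Matches of different motifs can overlap, as where GCGTG follows on from the NRF1 letters. The window of Atp5e holds SP letters at both ends of the upstream part, ETS letters and a pair of NFY matches on opposite strands.
Atp5e chr2:174289577-174289806 (- strand): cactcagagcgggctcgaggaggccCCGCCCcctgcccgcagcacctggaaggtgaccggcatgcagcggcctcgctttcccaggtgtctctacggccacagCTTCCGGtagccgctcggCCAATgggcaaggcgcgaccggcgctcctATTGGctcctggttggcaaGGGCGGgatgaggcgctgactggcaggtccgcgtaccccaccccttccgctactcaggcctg

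Over the 82 genes with a normoxia peak, NRF1 letters were in 7 windows (8.54%), against 3.44% of the 11379 windows of all genes with a normoxia promoter peak. ETS letters were in 19 (23.2%) against 17.6%, and SP letters in 36 (43.9%) against 63.2%. NFY letters were in 34.1% against 35.4%, and the short HIF letters in 52.4% against 58.0%. CRE letters were in 3 windows (3.66%, against 3.43%) and AP-1 letters in 2 (2.44%, against 4.65%). YY1 letters were in 1, that of Atp5j (1.22%, against 2.33%), and ERR letters in 1, that of Atp5g3 (1.22%, against 0.176%). The median window held 15.5 CpG dinucleotides against 17 for all genes with a peak. The 10 genes without a normoxia promoter peak had a median of 5.5, and all genes without one a median of 3. A match is a description of the letters and not a measured binding site.

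The paralogs that are known from particular tissues differed from their ubiquitous partners in presence. Of the 7 tissue isoforms of complex IV, 6 had no promoter peak in any list: Cox4i2, Cox6a2, Cox6b2, Cox7b2, Cox8b and Cox8c. The seventh, Cox7a1, the heart and muscle form of Cox7a2, had 1 peak, at 24 h, with a fold enrichment of 3.87 on 10 reads. Each of their partners had a peak in all 7 lists. Cox7a2 had 14.4 in normoxia and 14.0, 12.5, 13.7, 12.1, 12.5 and 11.7 in hypoxia, and Cox8a had 14.7 in normoxia and 6.81, 12.9, 12.5, 10.2, 11.4 and 13.1. Cox6a1 had from 6.82 to 10.4 over the 7 lists, and Cox6b1 from 4.83 to 9.35. A promoter with no peak may still have had reads below the level at which the authors' peak caller made a call.

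**Figure D3:**
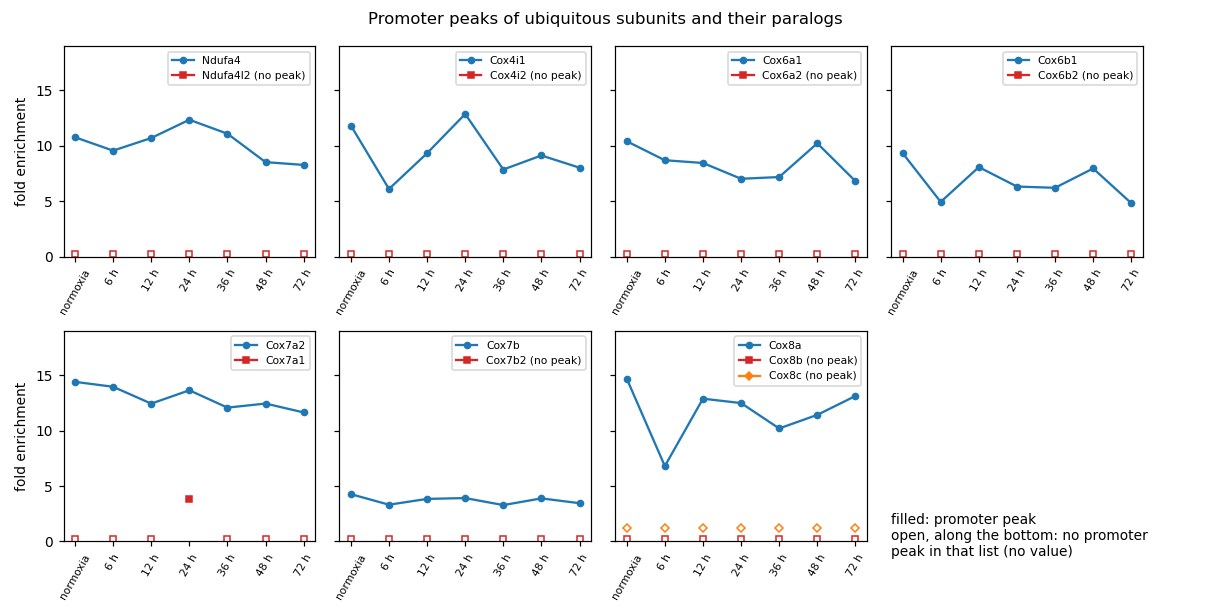
Fold enrichment of the promoter peak (vertical axis, linear) in the 7 lists (horizontal axis) for ubiquitous subunits (blue circles) and their paralogs (red squares, orange diamonds). Open symbols along the bottom mark lists with no promoter peak and carry no value; Cox7a1 has a single filled square, 3.87 at 24 h, and no other paralog has one.

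Cox4i1 and Cox4i2 are the alternative forms of subunit 4, through which ATP acts on the oxidase. Cox4i1 had 11.8 in normoxia and 6.10, 9.34, 12.9, 7.86, 9.13 and 8.03 in hypoxia. Cox4i2 had no promoter peak at any time in 1% oxygen. Within 10 kb of its body, 3 sites had a peak away from any start, each in 1 or 2 lists, with fold enrichments between 3.08 and 4.49, and none of them was in all hypoxia lists. The windows are shown because they differ in the letters as in the peak. That of Cox4i1 has 33 CpG and runs of SP letters, whereas that of Cox4i2 has 14 CpG, HIF letters and no SP or ETS letters.
Cox4i1 chr8:123191990-123192219 (+ strand): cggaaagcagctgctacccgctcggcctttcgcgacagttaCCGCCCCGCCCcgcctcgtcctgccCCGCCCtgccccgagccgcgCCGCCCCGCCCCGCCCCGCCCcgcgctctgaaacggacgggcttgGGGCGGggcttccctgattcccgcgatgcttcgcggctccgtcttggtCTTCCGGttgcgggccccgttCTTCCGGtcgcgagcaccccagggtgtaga
Cox4i2 chr2:152579709-152579938 (+ strand): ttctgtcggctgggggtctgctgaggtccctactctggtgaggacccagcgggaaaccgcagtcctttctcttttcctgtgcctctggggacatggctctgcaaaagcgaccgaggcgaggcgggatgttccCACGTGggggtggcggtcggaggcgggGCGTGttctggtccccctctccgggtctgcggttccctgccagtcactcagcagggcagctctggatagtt

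Ndufa4 is a subunit of complex IV that was first assigned to complex I, and Ndufa4l2 is its paralog. Ndufa4 had 10.8 in normoxia and 9.57, 10.7, 12.4, 11.1, 8.53 and 8.28 in hypoxia. Ndufa4l2 had no promoter peak in any list. However, all 7 lists held a region of accessible chromatin upstream of it, between Stac3 and Ndufa4l2 and over 1 kb from the start of any protein-coding gene, at chr10:126948860-126950288. Its fold enrichment was 5.90 in normoxia and 3.54, 7.89, 8.06, 7.37, 9.14 and 5.89 in hypoxia. Unscaled, the values at 12 to 48 h were above normoxia, that at 6 h was below it, and that at 72 h was level with it. Over all genes with a promoter peak in both lists, the median log2 ratio to normoxia was −0.36 at 6 h and −0.25 at 72 h. At 12 to 48 h it was from −0.13 to 0.004. The summit stood between 1920 and 1994 bp before the start in every list.

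**Figure D4:**
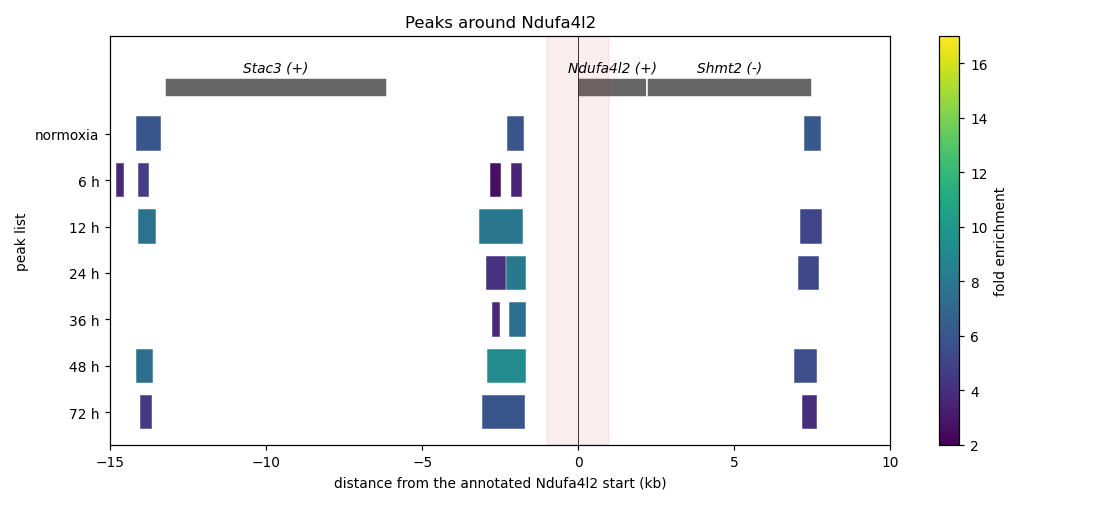
Peaks (boxes, colored by fold enrichment) in each of the 7 lists (rows) by distance from the annotated start of Ndufa4l2 (horizontal axis, kb), with the neighboring genes and their strands above. The pink band is 1 kb on each side of the start and holds no peak, while the upstream region has a peak in every row, 492 bp wide in normoxia and 1338 bp at 12 h.

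The width of the peak called there also varied. It was 492 bp in normoxia, 272, 1338, 557, 492, 1162 and 1312 bp in hypoxia, and at 6, 24 and 36 h a second peak was called beside it. The windows of Ndufa4 and Ndufa4l2 and 230 bp around the normoxia summit of the upstream region are shown to compare the promoter without a peak with the accessible site. The Ndufa4l2 promoter holds 3 CpG and 1 match, to SP letters, and the upstream region 15 CpG with HIF and NFY letters. The Ndufa4 window holds 11 CpG and none of the letters searched.
Ndufa4 chr6:11857417-11857646 (- strand): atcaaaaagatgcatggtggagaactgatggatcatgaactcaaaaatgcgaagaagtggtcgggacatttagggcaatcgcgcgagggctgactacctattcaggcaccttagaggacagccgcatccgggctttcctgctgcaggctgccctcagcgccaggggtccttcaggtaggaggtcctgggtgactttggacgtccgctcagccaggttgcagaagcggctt
Ndufa4l2 chr10:126951795-126952024 (+ strand): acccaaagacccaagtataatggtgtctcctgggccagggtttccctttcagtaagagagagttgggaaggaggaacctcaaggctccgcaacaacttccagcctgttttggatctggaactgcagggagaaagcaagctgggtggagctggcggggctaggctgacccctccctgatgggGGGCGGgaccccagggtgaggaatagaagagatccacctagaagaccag
Ndufa4l2 upstream region chr10:126949891-126950120 (+ strand): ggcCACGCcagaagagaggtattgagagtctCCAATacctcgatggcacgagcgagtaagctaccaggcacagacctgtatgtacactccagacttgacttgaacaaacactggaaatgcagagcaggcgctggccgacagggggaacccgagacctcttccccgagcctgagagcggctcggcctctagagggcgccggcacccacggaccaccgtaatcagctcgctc

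The genes with a promoter peak in some lists only were Cyc1, Ndufb10, Ndufaf1 and Cox7a1, all with low peaks. A peak in hypoxia and none in normoxia was seen at 2 of the 92 genes, Ndufb10 and Cox7a1, against 6.61% of all protein-coding genes. Only genes without a normoxia peak can gain one, and on that base the counts were 2 of 10 against 1469 of 10859. A normoxia peak that was missing in 1 or more hypoxia lists was seen at 2, Cyc1 and Ndufaf1, against 4.43% of all genes. Among genes with a normoxia peak, these were 2 of 82 against 986 of 11379. Cyc1, the cytochrome c1 of complex III, had 5.71 in normoxia, 3.76, 6.59, 4.22, 4.66 and 3.98 at 6 to 48 h, and no peak at 72 h. Its peaks rested on 10 to 21 reads. Ndufb10, an accessory subunit, had peaks at 12, 36 and 48 h, with 4.66, 4.71 and 4.35. Ndufaf1, an assembly factor of complex I, had 4.67 in normoxia on 8 reads and 4.26 at 72 h on 14 reads. The highest position of any of these peaks was percentile 23.6, for Cyc1 at 12 h, and counts this small lie near the level at which a list makes a call. With only peaks of -log10 q of 5 or more, the counts became 4 (all genes 6.48%) and 6 (5.51%). Cox7a1 was counted through the 24 h list and Cyc1 through the 72 h list alone, so each count was 1 without that list.

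The windows of Cyc1 and Ndufb10 are shown as the subunit promoters whose peak came and went. That of Cyc1 holds SP and HIF letters and 15 CpG, and that of Ndufb10 holds none of the letters searched and 5 CpG.
Cyc1 chr15:76173753-76173982 (+ strand): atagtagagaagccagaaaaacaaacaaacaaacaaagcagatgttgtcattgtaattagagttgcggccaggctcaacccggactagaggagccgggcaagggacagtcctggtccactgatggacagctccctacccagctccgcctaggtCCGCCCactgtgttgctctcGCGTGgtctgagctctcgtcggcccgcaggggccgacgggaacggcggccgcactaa
Ndufb10 chr17:24861394-24861623 (- strand): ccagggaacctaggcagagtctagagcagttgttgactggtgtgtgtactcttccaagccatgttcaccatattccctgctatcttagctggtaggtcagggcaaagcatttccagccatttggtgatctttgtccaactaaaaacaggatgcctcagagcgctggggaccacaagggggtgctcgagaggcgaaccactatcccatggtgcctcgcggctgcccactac

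The change of a promoter in hypoxia was taken as the log2 ratio of its fold enrichment to that in normoxia, minus the median of this ratio over all genes with a promoter peak in both lists. All 6 times share the normoxia list, so a value that is high or low in that list moves all of them. The median change of the oxidative phosphorylation genes, 81 at each time, was −0.08, −0.05, −0.06, −0.04, −0.05 and −0.02 from 6 h to 72 h. At 6 h the middle 50% of these genes ran from −0.32 to 0.14, and the middle 50% of all genes from −0.20 to 0.18. With summit reads in place of fold enrichment, the medians at 6, 48 and 72 h were 0.062, 0.030 and 0.0021, on the other side of 0. As a set, the promoters of the respiratory chain differed from all promoters by less than 0.1 on the log2 scale at each of the 6 times.

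A promoter was counted as higher or lower when it differed from the all-gene median by 1.5-fold or more. At 6 h, 1 of the 81 was higher and 6 were lower, where the shares of all genes were 2.77% and 4.84%. At 12 h, 4 were higher and 1 was lower (all genes 5.83% and 1.24%). At 24 h, 1 was higher and 3 were lower (4.15% and 2.35%), and at 36 h, 1 was higher and 3 were lower (3.59% and 3.14%). At 48 h, 1 was higher and 4 were lower (4.36% and 2.62%), and at 72 h, 4 were higher and 3 were lower (3.88% and 4.5%). The shares of the 81 genes lay between 1.23% and 7.41%, and those of all genes in the same range. Of 80 genes with all 6 changes, 9 had all above 0 (11.3%, against 15.0% of all genes) and 15 had all below 0 (18.8%, against 14.5%).

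**Figure D5:**
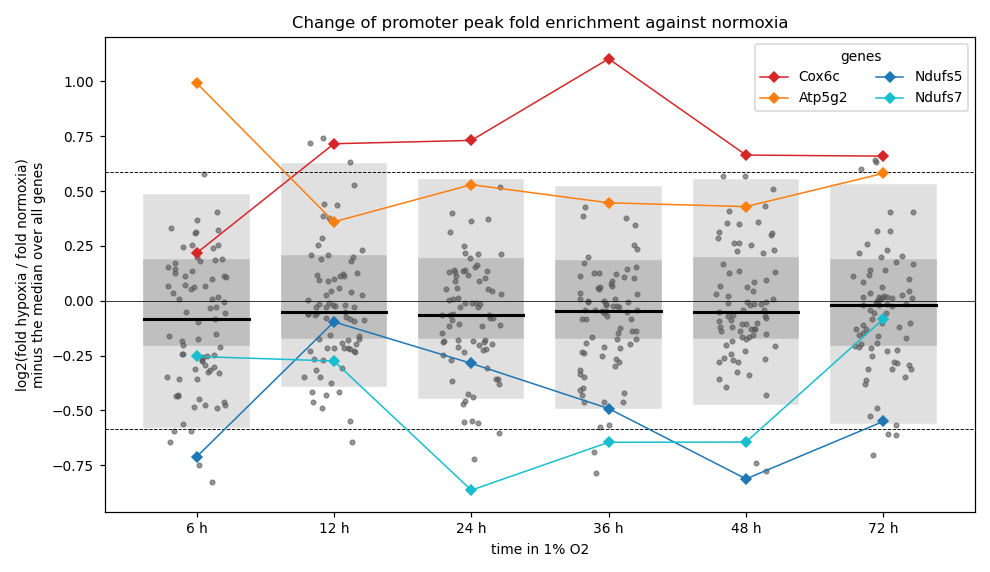
Change of promoter peak fold enrichment against normoxia (vertical axis, log2, minus the median over all genes) at 6 times in 1% oxygen, for each oxidative phosphorylation gene (gray points, with 4 named genes as colored diamonds). Black bars are medians of these genes, from −0.08 to −0.02, the dark and light bands hold the middle 50% and 90% of all genes, and dashed lines mark 1.5-fold; Cox6c lies above the upper line at 5 of the 6 times.

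Cox6c, a small subunit of complex IV, had the highest mean change over the 6 times. Its fold enrichment was 3.63 in normoxia and 3.29, 5.99, 5.97, 7.14, 5.40 and 4.83 in hypoxia, and its changes were 0.22, 0.72, 0.73, 1.10, 0.66 and 0.66 on the log2 scale. It was 1.5-fold or more higher at the 5 times from 12 h on, the only one of the genes counted at more than 2 times as higher. The normoxia peak rested on 6 reads, however, and the hypoxia peaks on 13 to 22. Taken as reads over the all-promoter median, the 36 h value was 2.87 times normoxia, with a 95% exact binomial interval for counting error alone from 1.13 to 8.64. At the other 5 times the interval held 1. Cox6c was picked by its change in these same lists, so the interval is no test of that change. The window of Cox6c holds overlapping NRF1 and HIF letters far upstream, and SP and HIF letters near the start.
Cox6c chr15:35867735-35867964 (- strand): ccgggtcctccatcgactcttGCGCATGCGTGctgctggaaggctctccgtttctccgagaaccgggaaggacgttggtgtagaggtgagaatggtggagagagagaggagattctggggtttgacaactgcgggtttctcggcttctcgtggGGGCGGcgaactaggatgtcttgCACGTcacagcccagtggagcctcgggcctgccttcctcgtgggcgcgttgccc

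Atp5g1, Atp5g2 and Atp5g3 encode the same mature protein, subunit c, whose ring turns in the membrane part of ATP synthase. The changes of Atp5g2 and Atp5g3 were above 0 at all 6 times, and those of Atp5g1 were below 0 at 5 of the 6. Atp5g1 had the highest peak of the 3, with 15.3 in normoxia and 11.7, 14.8, 11.1, 12.3, 13.1 and 13.0 in hypoxia. Its mean change was −0.14, from −0.46 at 24 h to 0.01 at 72 h, and its counting interval in reads lay below 1 at 24 h only (0.52 times normoxia, from 0.36 to 0.76). Atp5g2 had 5.76 in normoxia and 8.93, 7.41, 8.23, 7.18, 7.27 and 7.24 in hypoxia, with changes of 0.99 at 6 h and from 0.36 to 0.58 later. Atp5g3 had 6.70 in normoxia and 5.41, 9.68, 9.51, 7.79, 8.93 and 8.74 in hypoxia, with changes from 0.05 to 0.63. In normoxia the summit reads were 37 for Atp5g2 and 14 for Atp5g3, and only the 6 h change of the former and the 72 h change of the latter reached 1.5-fold. Counted in reads over the all-promoter median, Atp5g3 was from 1.95 to 2.26 times normoxia at the 5 times from 12 h on, and its counting intervals lay above 1 at those times, between 1.03 and 4.52. The same 14 normoxia reads enter each of them. Ndufc2, an accessory subunit of complex I, also had changes above 0 at all 6 times, with 6.23 in normoxia and from 6.11 to 7.95 in hypoxia. For both Atp5g2 and Ndufc2, the counting intervals in reads held 1 at all 6 times. The window of Atp5g2, shown as the deeper of Atp5g2 and Atp5g3, has NRF1 letters that read on both strands near the start, beside SP letters.
Atp5g2 chr15:102501449-102501678 (- strand): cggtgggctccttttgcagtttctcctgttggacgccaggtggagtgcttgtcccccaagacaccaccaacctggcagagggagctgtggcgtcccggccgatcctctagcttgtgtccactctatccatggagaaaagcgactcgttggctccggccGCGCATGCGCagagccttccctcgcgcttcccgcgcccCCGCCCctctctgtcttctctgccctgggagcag

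Ndufs5, Ndufs7, Cox6b1 and Atp5j2 had the lowest mean changes of the genes below 0 at all 6 times. They were picked by these changes, so a counting interval that leaves out 1 is no test of a change. In summit reads, Ndufs5 and Atp5j2 were again below 0 at all 6. Cox6b1, however, was above 0 at 6 h (0.05) and 48 h (0.06), and Ndufs7 at 6 h (0.18) and 72 h (0.11). The counting interval of Cox6b1 in reads held 1 at all 6 times. Ndufs5, an accessory subunit of complex I, had 13.8 in normoxia and 6.59, 13.0, 11.2, 9.01, 7.39 and 7.95 in hypoxia, with changes from −0.81 at 48 h to −0.10 at 12 h. Ndufs7, a core subunit, had 10.3 in normoxia and 6.75, 8.56, 5.62, 6.04, 6.20 and 8.21 in hypoxia, with changes from −0.86 at 24 h to −0.08 at 72 h. Normoxia was the highest of the 7 values for both. Counted in reads, the counting interval lay below 1 at 48 h for Ndufs5 (0.55 times normoxia, from 0.31 to 0.96) and at 24 h for Ndufs7 (0.46 times, from 0.22 to 0.92), and held 1 at the other times. Atp5j2, a subunit of the membrane part of complex V, had 11.9 in normoxia and from 5.24 to 10.3 in hypoxia. Its counting interval lay below 1 at 6 h (0.34 to 0.85) and at 36 h (0.39 to 0.91). The peak shared by Cox4i1 and Cox4nb had changes below 0 at all times but 24 h (0.14). In reads over the all-promoter median it was from 0.53 to 0.77 times normoxia. Its counting intervals lay below 1 at 36, 48 and 72 h, between 0.34 and 0.97. Intervals of other genes also left out 1. They lay below 1 for Uqcrq at 6, 12 and 24 h and for Atp5j at 12 and 36 h. For Ndufaf4 they lay above 1 at 24 and 36 h. How many did so was not counted, in this set or over all genes.

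Within 10 kb of the gene body, 84 to 88 of the 92 genes had a peak in a list, against 70.5% to 78.1% of all protein-coding genes. The median number of such peaks was 2 for these genes in every list, and 2 for all genes in each list but that at 6 h, where it was 1. Peaks not within 1 kb of the start of a protein-coding gene formed 96 sites near 51 of the genes. Of these sites, 19 were in all 7 lists, 28 were in 1 list, 3 were in normoxia only, and 0 were in all 6 hypoxia lists and absent from normoxia. The same shares over the sites of all genes were not computed, so these counts cannot be read as a trait of this set. The sites in all lists near Ndufb9 and Atp5s were among the highest, with 14.0 and 12.5 in normoxia. One inside the first 10 kb beyond Sdhb had 10.5 in normoxia and 8.87, 14.8, 11.2, 7.98, 12.2 and 11.8 in hypoxia, on both sides of normoxia. The site on the 5′ side of Atp5c1, at chr2:10008806-10009401, had 6.23 in normoxia and 6.11, 13.8, 8.43, 8.18, 6.54 and 4.54 in hypoxia. These values are unscaled, and the 12 h list held the most peaks (81732). Atp5c1 shares its promoter peak with Kin, so the site cannot be assigned to either gene.

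The other genes of the pathway were described by lists of assembly factors, regulators of mitochondrial biogenesis, and carriers. Each of the 25 assembly factors found in the annotation had a promoter peak in every list, against 46.7% of all protein-coding genes, with a median percentile of 68.6. Of these 25, 4 had all 6 changes against normoxia above 0 and 4 had all below 0. Of the 15 regulators with all 6 changes, 2 had all above 0 and 2 had all below 0. The shares over all genes were 15.0% and 14.5%. Nubpl, which delivers iron-sulfur clusters to complex I, had 4.67 in normoxia and 4.23, 10.8, 7.38, 7.46, 10.2 and 7.38 in hypoxia. Of 16 regulators, 15 had a peak in all lists, and the sixteenth, Ppargc1b, a coactivator, had none in normoxia and from 4.12 to 6.00 in the 6 hypoxia lists. Its peaks were low, at a mean percentile of 14.7, and normoxia was the shallowest list. A peak in hypoxia and none in normoxia, seen at 1 of these 16 genes, was seen at 6.61% of all protein-coding genes. Tfam, the mitochondrial transcription factor, had 14.2 in normoxia and from 10.1 to 13.3 in hypoxia, and Nrf1 had 5.71 and from 4.26 to 8.99. Of the 8 carriers and related genes, Cycs, the somatic cytochrome c, had 16.0 in normoxia and from 12.7 to 15.9 in hypoxia. Its testis paralog Cyct and the testis nucleotide carrier Slc25a31 had no promoter peak in any list. Atpif1, the inhibitor of ATP synthase, had 10.1 in normoxia and 5.88, 7.55, 6.32, 4.84, 10.1 and 5.15 in hypoxia. Its changes were −0.42, −0.42, −0.66, −0.93, 0.09 and −0.72, and it too was named after its values were seen. Of the 6 genes of its list with all 6 changes, 1 had all above 0 and 0 had all below 0.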

How the data were processed

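ATAC-seq was done on 14 samples of 4T1 cells in 7 groups of 2, taken from the labels. Upstream, as given in the methods and in the notes of the submitters, the authors mapped trimmed read pairs to mm9 (Bowtie2 2.1.0), dropped duplicate (Picard 1.79) and mitochondrial reads, pooled both samples of a group and ran MACS2 (version not stated) in narrow mode. The deposited fold enrichment (column 7) is the ratio of reads at a summit to the background around it, and the deposited -log10 p and -log10 q columns come from the same test. The lowest -log10 q was 1.30 to 1.31, so q reached up to 0.05. The lists held 49006 to 81732 peaks. Summit reads were recovered as the whole number that gives both fold and -log10 p, and their number limits precision. Counting intervals (exact, 95%) cover counting error only. They were not adjusted for the number of genes and times, and for genes picked by their change they test nothing.

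Peaks were joined to genes of GENCODE on NCBIM37 (the mm9 assembly, with 0 peaks past a chromosome end) with Python 3.11.15, pandas 2.3.3 and pysam 0.24.0, tested on simulated data. Of 93 gene models, 2 shared the symbol Ndufb8 and were joined. There was 1 list per group, so counts and medians stand beside the same values over all protein-coding genes where these were computed, with no test. Members and lists were chosen with earlier results of these data known. Named genes were those in some or no lists, the 4 highest and 4 lowest by position and by change of 1 sign at all 6 times, the paralog pairs and core subunits; other named genes were chosen after their values were seen. One gene counted in the totals is not reported here by name.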

Additional observations from a re-analysis of the deposited data

How the results depend on the processing

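The 10 main results were recomputed under 16 alternative settings, giving 116 values, of which 105 stayed within 1.5 times for a count, 5 percentile points for the median position and 0.1 on the log2 scale for a median change. With peaks of -log10 q of 5 or more, the genes with a promoter peak in hypoxia and none in normoxia became 4, and those with a normoxia peak missing in hypoxia became 6. With the 20000 peaks of highest -log10 q in each list, 46 genes had a peak in all 7 lists, 6 had one in hypoxia and none in normoxia, 16 lacked a normoxia peak in hypoxia (all genes 7.13% and 8.61%), and the median position was 54.2. Within 10 kb of the gene body, the count in hypoxia and not in normoxia was 1, as it was without the 24 h list. The count missing in hypoxia was 1 without the 72 h list and 1 with non-subunit genes left out. With recovered summit reads the median change at 6 h against all promoters was 0.062, and the mean changes of Cox6c, Atp5g3 and Ndufc2 were 1.07, 0.97 and 0.73 in place of 0.68, 0.43 and 0.35. Those of Atp5g2, Cox6b1 and Ndufs7 were 0.33, −0.18 and −0.33 in place of 0.56, −0.44 and −0.46. For these values the cause was not tested.

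No paired analysis was possible because the 2 samples of each group were merged into 1 peak list, and leaving out each sample could not be run for the same reason. The fewest reads at a called promoter peak were 5 in the shallowest list and 11 in the 6 h list, so low promoters such as those of Cyc1 and Ndufb10 cannot be called absent.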
